A study of Mus musculus with 8 samples.

Results

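The pyruvate dehydrogenase complex was followed here in mouse liver through 10 genes, 5 for its subunits (Pdha1, Pdhb, Dlat, Dld and Pdhx), 3 for kinases (Pdk1, Pdk2 and Pdk4) and 2 for phosphatases (Pdp1 and Pdp2). Each was taken by its symbol from a table of 21358 genes, and all 10 were found. The series describes a mouse model of metabolic dysfunction. Liver RNA was sequenced in 8 libraries after 22 weeks of fasting every other day, 4 in a feeding glucose group (FG, libraries 93, 94, 95 and 96) and 4 in a starvation glucose group (SG, libraries 101, 103, 104 and 105). Both groups thus shared the regimen and received glucose, and by their names differed in whether it was given during feeding or during starvation. The labels name no strain, sex, age, dose or time between the last meal and collection, and no control without glucose was analysed here. The design text gives an n of 4 per group, but no label ties a library to an animal of its own, so the p-values speak only for library-to-library spread, which may be technical.

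The complex sits in the mitochondrial matrix and turns pyruvate irreversibly into acetyl-CoA, which joins glycolysis to the citric acid cycle and, in the fed liver, to fatty acid synthesis. Pdha1 and Pdhb form its E1 enzyme, Dlat the E2 core that carries the acetyl group on lipoate, Pdhx the protein that tethers E3 to that core, and Dld the E3 dehydrogenase, which also serves other complexes. Kinases phosphorylate the E1 alpha subunit and switch the complex off, and the phosphatases remove the phosphate and switch it on. Pdk4 is known as the kinase whose transcript rises with fasting and is repressed by insulin, and Pdp2 is the phosphatase isoform typical of liver, while Pdp1 prevails in muscle. None of this activity was measured here, only the abundance of transcripts.

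Promoter sequence is shown for 2 genes that were lower in SG (Pdha1 and Pdhx) and for the 2 that were higher (Pdk4 and Pdp2), to set the text of their start regions beside the expression values that follow. The sequences are RefSeq's for GRCm38.p6, the 250 bases before the transcription start, 5′ to 3′ on the gene's strand, with matches to a searched motif in capitals. The Pdha1 stretch is chrX:160138431-160138680 (minus strand), that of Pdhx chr2:103073514-103073763 (minus), that of Pdk4 chr6:5496279-5496528 (minus) and that of Pdp2 chr8:104591222-104591471 (plus).
Pdha1: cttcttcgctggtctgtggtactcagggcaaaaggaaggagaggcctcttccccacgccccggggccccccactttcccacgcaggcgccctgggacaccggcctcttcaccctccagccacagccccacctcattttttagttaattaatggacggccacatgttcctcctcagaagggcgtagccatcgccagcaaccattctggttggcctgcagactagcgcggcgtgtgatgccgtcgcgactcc
Pdhx: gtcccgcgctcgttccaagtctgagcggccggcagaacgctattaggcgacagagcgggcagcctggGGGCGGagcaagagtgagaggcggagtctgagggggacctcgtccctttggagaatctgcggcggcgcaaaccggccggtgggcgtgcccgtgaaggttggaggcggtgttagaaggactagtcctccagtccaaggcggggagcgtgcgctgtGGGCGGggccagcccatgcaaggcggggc
Pdk4: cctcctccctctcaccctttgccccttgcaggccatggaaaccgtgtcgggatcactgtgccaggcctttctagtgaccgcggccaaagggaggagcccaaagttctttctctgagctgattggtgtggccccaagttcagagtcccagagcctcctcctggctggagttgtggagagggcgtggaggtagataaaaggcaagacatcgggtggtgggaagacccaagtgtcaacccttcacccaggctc
Pdp2: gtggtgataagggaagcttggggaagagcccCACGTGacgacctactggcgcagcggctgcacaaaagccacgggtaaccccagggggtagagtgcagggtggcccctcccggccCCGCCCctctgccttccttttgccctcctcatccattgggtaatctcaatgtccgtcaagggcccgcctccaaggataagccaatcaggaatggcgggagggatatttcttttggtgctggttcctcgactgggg

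Motifs were searched on both strands from 250 bases before to 50 after the start, in 11 windows of the 9 members for which the RefSeq table gave one. They were GTAAACA (forkhead factors), TGACGTCA (cAMP response element), CACGTG (E-box), AAGGTCA (an extended half-site of nuclear receptors) and GGGCGG (GC box). Matches to different motifs did not overlap in these windows. GC boxes were found in 5 of the 11 windows, against 35.7% of all 32851 promoter windows. In Pdhx they begin 183 and 29 bases before the start, in Pdp2 one lies 135 bases before it, and the windows of Dlat, Pdhb and Pdk1 hold the others. The E-box was found in 2 of the 11 windows (7.15% of all windows), 219 bases before the start in Pdp2 and 126 before it in Pdk2. The forkhead motif (3.65% of all windows), the cAMP response element (1.79%) and the half-site (4.72%) had no match in any of the 11 windows. The sequences printed for Pdha1 and Pdk4 therefore carry no capitals.

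Levels are given in FPKM, fragments per kilobase of gene scaled by library depth, as deposited. Groups were compared with limma on log2(FPKM + 1) over all 9867 genes that reached 1 FPKM in at least 4 libraries, and a gene was called at a Benjamini-Hochberg adjusted p below 0.05. Differences are SG minus FG on that log2 scale, which understates changes of low genes. Over all tested genes 15.6% were called lower and 3.73% higher in SG, and the median difference was -0.135. Median-ratio scaling moved that median to 0.006 and the calls from 1544 lower and 368 higher to 499 lower and 545 higher. Of the 10 members 9 were tested, 5 were lower, 2 were higher and 2 were not called. Among the subunits 4 of 5 fell and none rose, with a median of -0.68 (-0.54 relative to all tested genes). Of the 4 kinases and phosphatases tested, Pdk1 fell, Pdk4 and Pdp2 rose and Pdk2 was not called. The Pdk4 call held in only 4 of 10 other settings and in 2 of 8 fits without 1 library. In bulk tissue, fewer cells of a type and less RNA per cell cannot be told apart. Values of the groups did not overlap in 6 members, a separation seen in 26.1% of all tested genes.

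Fragment numbers worked out from the FPKM steps came to 36479956 to 41894909 per library. Hepatocyte markers summed to 49774 to 59840 FPKM in FG and 51545 to 68309 FPKM in SG. Most of this sum was Alb, at 35965 to 49861 FPKM in the 8 libraries and not called. Of the 7 hepatocyte markers 2 were called, both higher in SG (Serpina1a and Apoa1). Macrophage markers (0 of 7 called) and stellate markers (0 of 5) did not pass in limma, and 1 of 6 endothelial genes (Clec4g), 1 of 2 tested biliary genes (Spp1) and S100a9 of neutrophils were lower in SG. Of 4 erythroid genes Alas2 was higher, and the 3 globin genes were not called (differences of -0.11, -0.15 and -0.24 for Hbb-bs, Hba-a1 and Hba-a2). The biliary sum was mostly Spp1, with means of 19.0 FPKM in FG and 12.4 FPKM in SG and overlapping groups. Means of Krt19 (3.23 and 1.15 FPKM, not called), Krt7 (0.743 and 0.308) and Epcam (0.775 and 0.49) were also lower in SG. The FG mean of Krt19 included FG 96 at 8.15 FPKM. Sox9 went the other way, with means of 0.519 and 0.687 FPKM. Krt7, Epcam and Sox9 did not reach the filter, and the groups overlapped in each of these genes. Over all tested genes 15.6% were called lower and 3.73% higher in SG, and the part of these cells in the results was not tested. Kdm5d, a Y-linked gene, was at 1.68 to 3.32 FPKM in the 8 libraries, and Xist did not exceed 0.00891 FPKM. FG 95 was the lowest library for Kdm5d and for the Y-linked Ddx3y (0.904 FPKM), Uty (0.407 FPKM) and Eif2s3y (1.33 FPKM). FG 93, and to a lesser degree FG 96, SG 104 and SG 105, held skeletal muscle transcripts, whose values stand beside Pdk4.

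**Figure D1:**
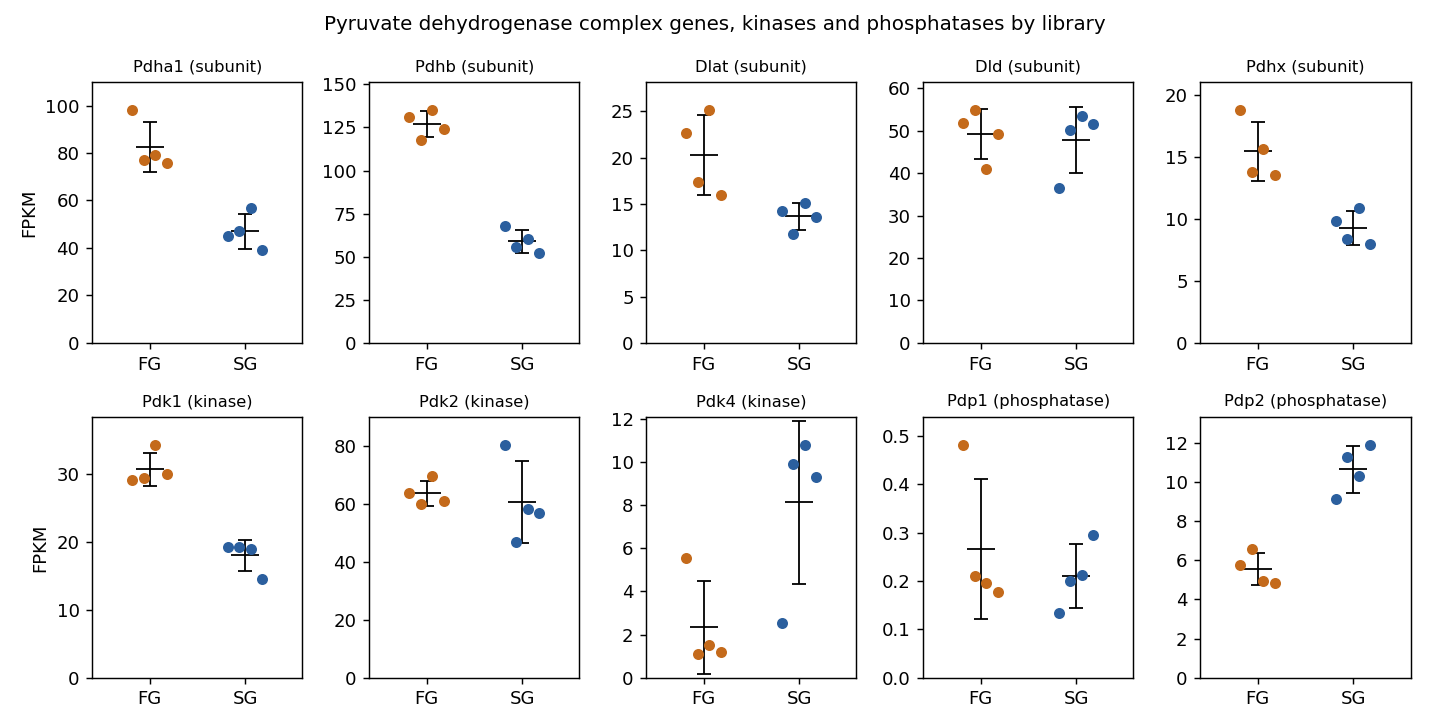
FPKM of each of the 10 genes in the 4 FG and 4 SG libraries (points), with the mean and SD in black and a linear axis from 0 in each panel. The SG points of Pdha1, Pdhb, Dlat, Pdhx and Pdk1 lie below all FG points, those of Pdp2 lie above, and those of Dld, Pdk2, Pdk4 and Pdp1 overlap with FG.

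Pdhb, the E1 beta subunit, had the smallest p of the 10 genes. Its level was 131, 118, 135 and 124 FPKM in FG 93, 94, 95 and 96, and 67.7, 55.5, 60.2 and 52.4 FPKM in SG 101, 103, 104 and 105. The highest SG library thus lay well below the lowest FG library, and the mean was 2.16 times higher in FG. The difference was -1.10 (SE 0.0972, adjusted p = 0.000469), the 19th smallest p among the 9867 genes. The gene (NCBI gene 68263) spans 8165991 to 8173303 of chromosome 14 in GRCm38.

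Pdha1, the E1 alpha subunit and the target of the kinases, stood at 98.0, 77.0, 79.0 and 75.6 FPKM in FG and at 45.2, 47.0, 56.8 and 39.1 FPKM in SG. All SG values were again lower, and FG 93 was the highest library. The difference was -0.80 (SE 0.129, adjusted p = 0.00615). Pdha1 (NCBI gene 18597) lies on the X chromosome from 160122219 to 160138430, and 603 of its 3734 annotated exon bases overlap Map3k15 on the opposite strand. Use of strand in counting is not stated in the labels or headers, and Map3k15 itself was listed at a mean of only 0.656 FPKM in FG and 0.347 FPKM in SG.

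Of the core and tethering proteins, Pdhx (E3-binding protein, chromosome 2, 103021055 to 103073513) was at 18.8, 13.8, 15.7 and 13.6 FPKM in FG and at 9.88, 8.37, 10.9 and 8.01 FPKM in SG. The groups did not overlap, and the difference was -0.68 (SE 0.132, adjusted p = 0.0117). Dlat, the E2 transacetylase (chromosome 9, 50634633 to 50659780), was at 22.6, 17.4, 25.1 and 16 FPKM in FG and at 14.2, 11.7, 15.1 and 13.6 FPKM in SG. Here FG 96 and SG 104 nearly touched. The fall of 0.52 on the log2 scale (difference -0.52, SE 0.148, adjusted p = 0.0385) was the smallest of the 4 subunits called. The Dlat call was lost after median-ratio scaling (difference -0.36, adjusted p = 0.141), and without FG 93 (adjusted p = 0.108), FG 95 (0.0861), SG 103 (0.0942), SG 104 (0.0606) or SG 105 (0.0803).

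Dld, the E3 flavoprotein shared with the 2-oxoglutarate and branched-chain complexes and the glycine cleavage system, was the subunit without a call. It measured 51.7, 54.8, 41.0 and 49.1 FPKM in FG and 36.4, 50.1, 53.4 and 51.6 FPKM in SG. Dld (chromosome 12, 31331562 to 31351471) overlapped between groups, with SG 101 the lowest library and the other SG libraries among the FG values. The difference was -0.05 with a 95% interval from -0.36 to 0.27 (adjusted p = 0.84), and it turned to 0.13 after median-ratio scaling. The interval does not reach the estimate of any other subunit, though a test of Dld against them was not made.

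**Figure D2:**
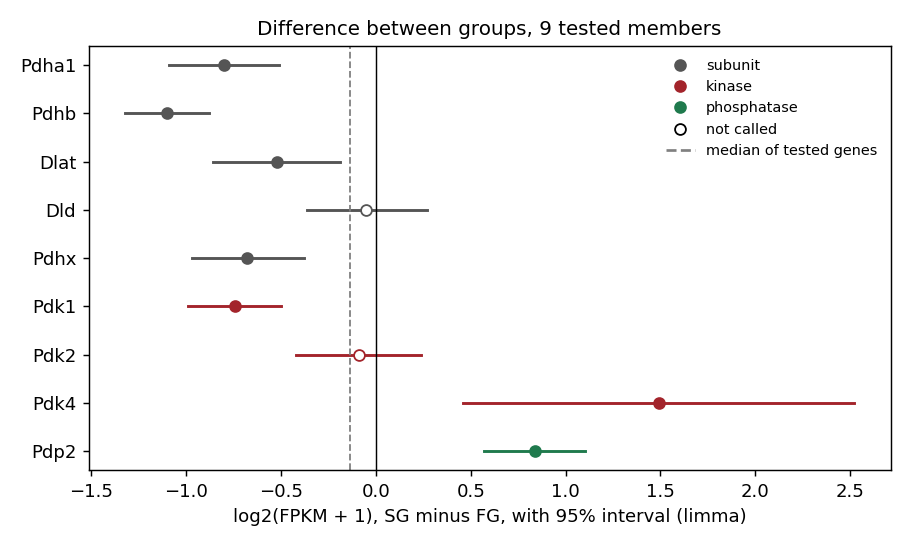
Difference between SG and FG in log2(FPKM + 1) for the 9 tested members, with limma's 95% interval as a line, filled points for called genes and open points for the others, and the median of all tested genes (-0.135) as a dashed line. Subunits other than Dld lie to the left, Pdp2 and Pdk4 to the right, and the interval of Pdk4 (0.46 to 2.52) is the widest.

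The kinases went in different directions. Pdk1 had 29.2, 29.4, 34.3 and 30.0 FPKM in FG and 19.2, 19.3, 19.0 and 14.6 FPKM in SG. Both groups were tight apart from a high FG 95 and a low SG 105, and they did not overlap. The fall of Pdk1 (difference -0.74, SE 0.109, adjusted p = 0.00415; chromosome 2, 71873215 to 71903858) was close in size to that of Pdha1. Pdk2, a kinase widely expressed and abundant in liver, had 64.0, 60.1, 69.7 and 61.1 FPKM in FG and 80.5, 46.9, 58.5 and 57.1 FPKM in SG. SG 101 was the highest library of all and SG 103 the lowest, so the groups overlapped. The difference of Pdk2 was -0.09 (95% interval -0.42 to 0.24, adjusted p = 0.689), and 0.08 after median-ratio scaling. The gene lies on chromosome 11 from 95026258 to 95041371.

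Pdk4 (chromosome 6, 5483351 to 5496278, the promoter printed above) was at 5.55, 1.11, 1.51 and 1.18 FPKM in FG and at 2.55, 9.92, 10.8 and 9.31 FPKM in SG. The values rested on 150 to 1406 fragments per library. In each group 3 libraries stood together and 1 stood apart towards the other group, FG 93 above the rest of FG and SG 101 below the rest of SG, so that the groups overlapped. The mean was 3.49 times higher in SG, and the difference was 1.49 (SE 0.459, adjusted p = 0.0498, just inside the threshold). Permuting the libraries in all 70 ways (exact test, two-sided) gave p = 0.0571 for Pdk4, where 0.0286 is the smallest p possible. Without SG 101 the difference was 1.90 (adjusted p = 0.0117) and without FG 93 it was 1.87 (adjusted p = 0.03). Without any one of the other 6 libraries the call was lost (FG 94, adjusted p = 0.106; FG 95, 0.104; FG 96, 0.105; SG 103, 0.113; SG 104, 0.116; SG 105, 0.114). It was also lost after median-ratio scaling (difference 1.62, adjusted p = 0.0507).

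FG 93 was also the library with the most skeletal muscle RNA. Acta1, skeletal muscle actin, stood at 471, 0.0816, 3.25 and 17.6 FPKM in FG and at 0.162, 0.732, 135 and 51.4 FPKM in SG. All 3 muscle genes of the marker list followed the same order at the top, with Ckm, muscle creatine kinase, at 221 FPKM and Myh1, a fast myosin, at 44.9 FPKM in FG 93. The summed level of the 5 adipocyte and muscle markers ranged from 1.82 to 739 FPKM in FG and from 2.26 to 232 FPKM in SG. None of the 4 tested was called, against 19.4% of all tested genes. Pdk4, Pdp1, Pdha1 and Pdhx all had their highest FG value in FG 93, and the part of muscle RNA in that was not tested. In SG 103, where Acta1 was at 0.732 FPKM, Pdk4 was at 9.92 FPKM, while SG 101, with Acta1 at 0.162 FPKM, had 2.55 FPKM. With the 4 libraries above 10 FPKM of Acta1 left out (a choice made after seeing the data, which leaves 2 FG and 2 SG libraries), the differences were -0.75 for Pdha1, -1.03 for Pdhb, -0.66 for Dlat, -0.63 for Pdhx, -0.69 for Pdk1, 1.43 for Pdk4 and 0.73 for Pdp2. None of these passed in the smaller fit (adjusted p = 0.189 to 0.423), in which 9 genes were called in all.

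**Figure D3:**
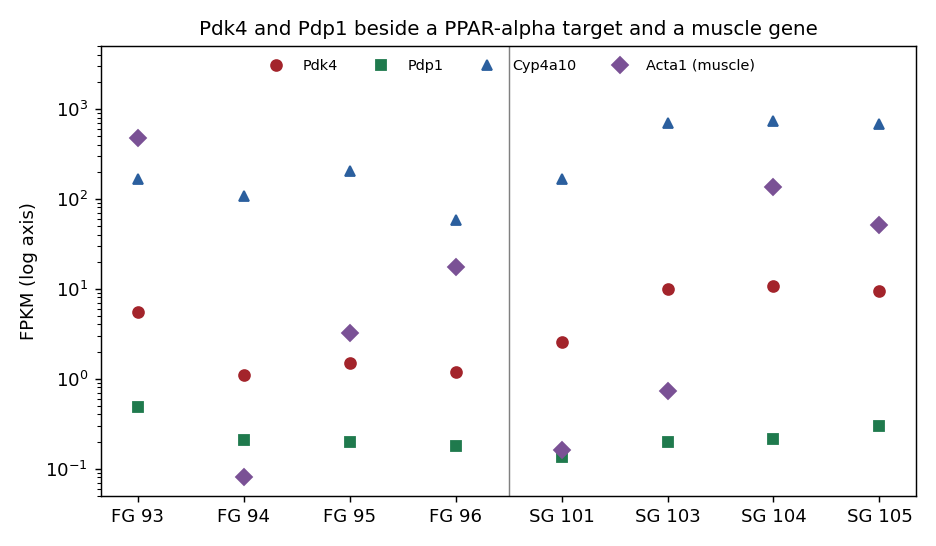
FPKM on a log axis in each of the 8 libraries for Pdk4, Pdp1, Cyp4a10 (a PPAR-alpha target) and Acta1 (skeletal muscle actin), with FG left and SG right of the line. Pdk4 and Cyp4a10 are high in SG 103, SG 104 and SG 105 and not in SG 101, whereas Acta1 is highest in FG 93 and spans several orders of magnitude within each group.

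Summed over Pdk1, Pdk2 and Pdk4, kinase transcripts came to 98.7, 90.5, 105 and 92.2 FPKM in FG and to 102, 76.1, 88.3 and 81.0 FPKM in SG, with overlapping groups. Pdk2 made up 64.8% to 66.3% of that sum in FG and 61.7% to 78.7% in SG. The share of Pdk1 was 29.5% to 32.5% in FG and 18% to 25.3% in SG, without overlap, as was already so for the level of Pdk1 itself. Pdk4 contributed 1.23% to 5.62% in FG and 2.49% in SG 101, against 11.5% to 13.0% in SG 103, 104 and 105. Even there it remained below Pdk1 in each library, at 0.515 to 0.639 times its level. These sums and shares are descriptions, made per kilobase and with no test. Pdk3, another kinase gene, was listed at 0.0177 to 0.0818 FPKM.

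**Figure D4:**
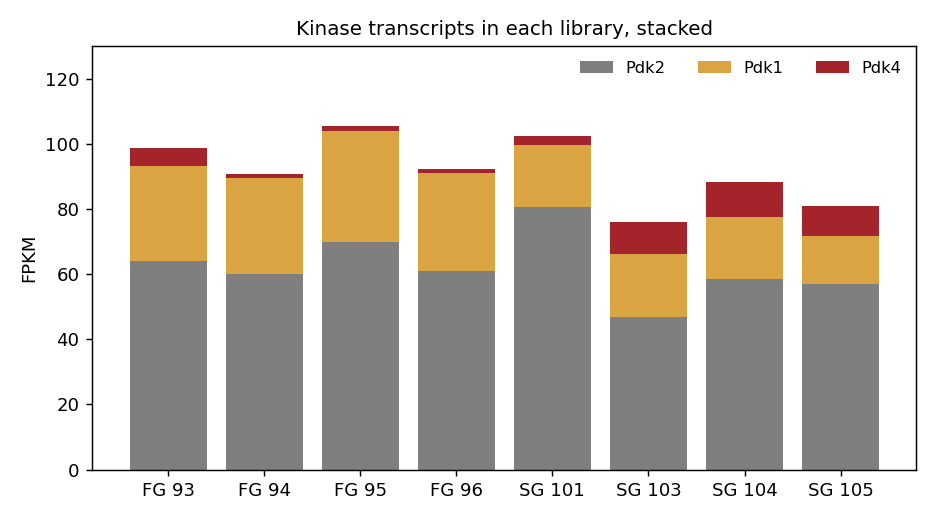
Stacked FPKM of Pdk2, Pdk1 and Pdk4 in each library, on a linear axis from 0. Pdk2 is the largest part in all 8 libraries, the Pdk1 part is smaller in SG, and the Pdk4 part is visible mainly in SG 103, SG 104 and SG 105.

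Pdp2, the phosphatase typical of liver, was at 5.77, 6.60, 4.96 and 4.83 FPKM in FG and at 9.16, 11.3, 10.3 and 11.9 FPKM in SG, from 1095 to 2633 fragments per library. The groups did not overlap, SG 101 being the lowest of SG. The mean was 1.92 times higher in SG, with a difference of 0.84 (SE 0.118, adjusted p = 0.00358). Pdp2 lies on chromosome 8 from 104591472 to 104599026, and its promoter (printed above) was the only member window with both a GC box and an E-box. Unlike Pdk4, Pdp2 kept its call in all 8 fits that left out 1 library (adjusted p = 0.0036 to 0.0139).

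Pdp1 (chromosome 4, 11958183 to 11966450) did not reach the filter and was not tested with limma. It was listed at 0.481, 0.210, 0.195 and 0.178 FPKM in FG and at 0.133, 0.199, 0.212 and 0.294 FPKM in SG, which is 23 to 81 fragments per library. The ranges overlapped, and an exact two-sided permutation test on log2(FPKM + 1) gave p = 0.686 (n = 4 each). FG 93 was the highest library, as in the muscle markers. FG 96, SG 104 and SG 105, with Acta1 at 17.6, 135 and 51.4 FPKM, had Pdp1 at 0.178, 0.212 and 0.294 FPKM. The part of muscle RNA in the Pdp1 level was not tested. Pdpr, the regulatory subunit of the phosphatase, was at 6.85 ± 0.868 FPKM in FG and 7.22 ± 1.38 FPKM in SG (SD, n = 4 each; limma difference 0.06, adjusted p = 0.791).

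The order of the members by level also differed between the groups. In FG it ran Pdhb (127 FPKM), Pdha1 (82.4), Pdk2 (63.7), Dld (49.2), Pdk1 (30.7), Dlat (20.3), Pdhx (15.5), Pdp2 (5.54), Pdk4 (2.34) and Pdp1 (0.266). Neighbours in this order overlapped in range only for Dlat with Pdhx and for Pdp2 with Pdk4. In SG it ran Pdk2 (60.8 FPKM), Pdhb (59.0), Dld (47.9), Pdha1 (47.0), Pdk1 (18), Dlat (13.7), Pdp2 (10.6), Pdhx (9.30), Pdk4 (8.15) and Pdp1 (0.209). Only Pdha1 with Pdk1 and Pdk4 with Pdp1 were then separate neighbours. Pdk2 thus lay below both E1 transcripts in all FG libraries, and the mean of Pdp2 was below that of Pdhx in FG and above it in SG.

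Ratios within a library do not depend on a scaling factor applied to whole libraries. Pdhb over Pdha1 was 1.34 to 1.71 in FG and 1.06 to 1.5 in SG, so the E1 beta transcript was the higher in each library and the ranges overlapped. Dld over Pdha1 was 0.519 to 0.712 in FG and 0.804 to 1.32 in SG, without overlap. Of these 2 genes Pdha1 alone already separated the groups, and Dld did not. Pdhx over Dlat was 0.624 to 0.851 in FG and 0.587 to 0.722 in SG, with overlap. The kinase sum over Pdha1 was 1.01 to 1.33 in FG and 1.55 to 2.26 in SG. The ratio of Pdp2 to Pdha1 moved the same way, from 0.0589 to 0.0856 in FG and 0.181 to 0.303 in SG. Neither ratio overlapped between the groups, but the kinase sum itself was 96.7 ± 6.82 FPKM in FG and 86.9 ± 11.4 FPKM in SG (SD, n = 4 each), with Pdk2, its largest part, not called and Pdha1 lower. The Pdp2 ratio had to separate, since each SG library had more Pdp2 and less Pdha1 than any FG library. Pdk4 over Pdha1 overlapped, at 0.0145 to 0.0567 in FG and 0.0563 to 0.238 in SG. Pdp2 over the kinase sum was 0.0470 to 0.0729 in FG and 0.0896 to 0.148 in SG. Here too Pdp2 alone already separated the groups, while the kinase sum overlapped. These ratios are descriptions with no test.

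**Figure D5:**
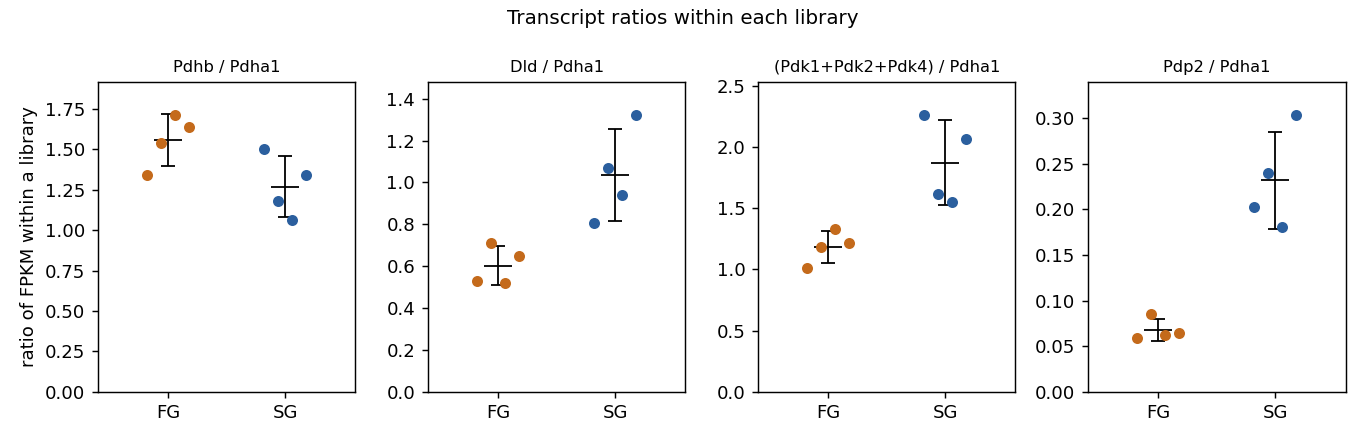
Ratios of FPKM within each library (points), with the mean and SD in black, for Pdhb, Dld, the kinase sum and Pdp2, each over Pdha1, in 4 FG and 4 SG libraries. The Pdhb ratio overlaps between the groups, and in the other 3 panels all SG points lie above all FG points.

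The sister complexes, which share Dld and the same lipoate chemistry, were looked at through a list of 12 genes. Of 11 tested, 4 rose (Ppm1k, Dbt, Dhtkd1 and Gldc) and none fell, against 3.73% higher and 15.6% lower over all tested genes, with a median of 0.17. Ppm1k, the phosphatase that activates the branched-chain complex, went from 4.76 ± 1.19 to 12.7 ± 1.29 FPKM (SD, n = 4 each; limma difference 1.27, SE 0.156, adjusted p = 0.00235). Dbt, the E2 of the branched-chain complex and the counterpart of Dlat, went from 22.0 ± 2.90 to 40.6 ± 8.20 FPKM (difference 0.84, SE 0.146, adjusted p = 0.00794). Dhtkd1, the E1 of the 2-oxoadipate complex, had a difference of 0.71 (adjusted p = 0.0097), and Gldc of glycine cleavage, the least of these by p, one of 1.08 (adjusted p = 0.0103). Ogdh and Dlst of the 2-oxoglutarate complex had differences of -0.02 (adjusted p = 0.921) and 0.17 (adjusted p = 0.157), and Bckdk, the branched-chain kinase, one of -0.22 (adjusted p = 0.46).

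Among 14 tested genes of lipoate and thiamine supply, which make the cofactors of E1 and E2, none was called (median -0.07, against 19.4% of all tested genes called in either direction). Lias, lipoic acid synthase, was closest, at 9.36 ± 0.223 FPKM in FG and 7.35 ± 1.07 FPKM in SG (SD, n = 4 each; limma adjusted p = 0.0617). In the list of pyruvate supply and its other uses, 3 of 14 fell and 2 rose, where 15.6% of all tested genes were lower and 3.73% higher. Me1, cytosolic malic enzyme, fell by 3.25 (limma adjusted p = 0.000469) and Pklr, liver pyruvate kinase, by 3.31 on the log2 scale (adjusted p = 0.000998). Mpc2, a subunit of the mitochondrial pyruvate carrier, was at 157 ± 10.3 and 128 ± 10.3 FPKM (difference -0.30, limma adjusted p = 0.0436). Its partner Mpc1 was at 57.7 ± 7.14 and 58.0 ± 7.17 FPKM (limma adjusted p = 0.964), and Pcx, pyruvate carboxylase, which competes for mitochondrial pyruvate, had a difference of -0.22 (adjusted p = 0.115). Gpt and Agxt, aminotransferases that use or form pyruvate, rose by 1.14 and 1.82 on the log2 scale (limma adjusted p = 0.00819 and 0.00838). In a list of genes that use or supply acetyl-CoA, 3 of 8 tested genes fell, against 15.6% of all tested genes. They were Acly (ATP citrate lyase, by 2.59 on the log2 scale), Cs and Acss2 (acetyl-CoA synthetase, by 0.93). Acss2 overlapped between the groups, with SG 101 at 122 FPKM and the lowest FG library at 115 FPKM (limma adjusted p = 0.0464). Cs, citrate synthase, was at 67.3, 49.9, 59.4 and 48.2 FPKM in FG and at 41.3, 37.1, 38.0 and 30.2 FPKM in SG (difference -0.60, adjusted p = 0.0178).

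None of 19 tested regulators linked to Pdk expression was called (median -0.19, against 19.4% of all tested genes called). The closest were Thrb, a thyroid hormone receptor (difference -0.42, limma adjusted p = 0.0687), and Nr0b2, the corepressor SHP (-0.96, adjusted p = 0.073). Ppargc1a, the coactivator PGC-1 alpha, did not reach the filter, and its levels of 0.511 to 0.81 FPKM in FG and 0.764 to 2.38 FPKM in SG overlapped. Ppara was at 40.9 ± 4.74 and 41.6 ± 2.03 FPKM and Foxo1 at 11 ± 2.69 and 11.7 ± 1.97 FPKM (SD, n = 4 each; limma adjusted p = 0.846 and 0.714). Of 20 targets of PPAR-alpha, 7 rose and 2 fell, against 3.73% higher and 15.6% lower over all tested genes, with a median of 0.36. Cyp4a10, a fatty acid hydroxylase named after its values were seen, was at 165, 106, 206 and 57.8 FPKM in FG and at 164, 687, 733 and 674 FPKM in SG. As with Pdk4, SG 101 lay among the FG values. Its relative Cyp4a14 was not called, with means of 246 FPKM in FG and 201 FPKM in SG (difference -0.49, limma adjusted p = 0.624). Cpt2 and Slc25a20, of mitochondrial fatty acid import, had differences of 0.43 (limma adjusted p = 0.00819) and 0.51 (0.0116), and the genes that fell were Fgf21 and Plin2. Acot1, an acyl-CoA thioesterase, was at 11.9 to 16.1 FPKM in FG and 28.1 to 67.7 FPKM in SG, where SG 101 was the lowest but still above FG (difference 1.75, adjusted p = 0.00331).

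Profiles over the 8 libraries were compared with 5427 tested genes of at least 5 FPKM on average, by Pearson's r of log2(FPKM + 1), as a description in which all points share their library. The genes most like Pdk4 were Slc25a33 (r = 0.958), Arl8b (0.954), Cyp4a31 (0.949), Slc22a5 (0.948) and Ppp2r2d (0.94). Slc22a5, the carnitine transporter OCTN2, was at 10.7, 8.95, 8.35 and 8.39 FPKM in FG and at 9.43, 17.0, 19.5 and 18.4 FPKM in SG, with the same 2 libraries, FG 93 and SG 101, apart from their groups. Those most like Pdha1 were Rabl6 (0.992), Ugt2b36 (0.988), Chmp3 (0.987), Rpl36al (0.987) and Slc6a9 (0.986). Slc6a9, a glycine transporter, had its highest value in FG 93 (34.0 FPKM), as Pdha1 did. These genes were chosen by r, so what Slc22a5 shares with Pdk4 and Slc6a9 with Pdha1 follows from that choice.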

How the data were processed

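The authors deposited 1 table of FPKM values per gene and library. Per the labels' protocols, TRIzol RNA was enriched for mRNA and read as 150 bp pairs, and alignment used HISAT2. The submitters' processing notes also list fastp, HTSeq, DESeq2 and the mouse builds GRCm38 and mm10, with neither version nor step. Library columns were matched to samples by name, and 0 were left unmatched. Genes with at least 1 FPKM in at least 4 libraries were tested on log2(FPKM + 1) with limma 3.58.1 in R 4.3.3 (trended empirical Bayes, 8 libraries, no covariates, Benjamini-Hochberg over 9867 genes, two-sided), after the fit was tested on simulated data. Whole fragment counts were recovered from the FPKM steps for 100% of genes (tolerance 0.02 fragments) and served only for depth and 1 alternative. The members and gene lists were chosen with earlier results of these data known. Named were all members, Pdk3 and Pdpr, up to 3 called genes with the smallest p per list, and the 5 genes most like Pdha1 and Pdk4; others named were chosen after their values were seen. Gene positions and promoters are RefSeq's for GRCm38.p6, and exon overlaps are from GENCODE vM21.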

Additional observations from a re-analysis of the deposited data

Results flagged for a closer look

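In 20 sets of 4 values (10 genes in 2 groups), 5 values lay farther from the others than Dixon's 95% critical value for 4 samples allows, where chance gives about 1 in 20. FG 93 held 3 of them. These were Pdha1 at 98.0 FPKM (gap over range 0.845), Pdk4 at 5.55 FPKM (0.91) and Pdp1 at 0.481 FPKM (0.896). The other two were in Pdk1, at 34.3 FPKM in FG 95 (0.843) and at 14.6 FPKM in SG 105 (0.935). Gaps and ranges were taken on FPKM, not on log2(FPKM + 1), and the scale can change which values exceed the critical value. On the FPKM scale SG 101, which stands apart for Pdk4, did not exceed it. The log2 values were not examined in this way.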

How the results depend on the processing

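Pdha1, Pdhb, Pdhx, Pdk1 and Pdp2 kept direction and call in all 10 other settings and all 8 fits without 1 library, while Dlat kept its call in 6 and 3 of these and Pdk4 in 4 and 2. Members called lower numbered 4 to 5 and members called higher 1 to 2 without 1 library; the 1 member higher was also the count with no filter, median-ratio scaling, rescaling without mitochondrial and the 10 most abundant genes, no trend, robust fitting and voom on recovered fragments. For Pdk4 the adjusted p in those settings was 0.136, 0.0507, 0.0503, 0.0506, 0.066 and 0.0566. Over all genes 1912 were called, 368 higher and 1544 lower (80.8% lower). Calls numbered 1133 with no filter (219 higher, 914 lower), 1044 after median-ratio scaling (545 higher and 499 lower, 47.8% of calls), 1078 after quantile normalization (616 lower, 57.1%), and 2748 with library weights (572 higher). Without 1 library they numbered 791 (FG 93), 1046 (SG 104), 1047 (FG 95), 1054 (SG 105), 1072 (SG 103) and up to 2355 (SG 101), with 181 to 454 higher and 610 to 1901 lower. The cause was not tested. Without the libraries above 10 FPKM of Acta1, 9 were called (4 higher, 5 lower), and of the members 0 lower, 0 subunits lower and 0 higher, in a fit with fewer samples.

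Differences near 0 changed sign in Dld (0.127 after median-ratio scaling, 0.044 after quantile normalization, 0.019 with library weights, 0.009 without FG 94, and from -0.128 without FG 95 to 0.078 without SG 101) and in Pdk2 (0.081 after median-ratio scaling, and from -0.234 without SG 101 to 0.021 without SG 103). No paired analysis was possible because the groups share no replicate numbers. Depth limits Pdp1, with 23 to 81 fragments per library.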
